A study of Mus musculus with 24 samples.

Results

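The 10 genes described here are Pecam1, Cdh5, Kdr, Flt1, Tek, Tie1, Angpt1, Angpt2, Vwf and Apln, genes of blood vessel endothelium and of angiogenesis, the growth of new vessels. They were taken by symbol from the 18368 genes of a table of FPKM values (fragments mapped to a transcript, scaled to its length and to the mapped fragments of the library), and all 10 were above 0 in all 24 libraries. RNA was sequenced from whole skin of 12 CD-1 mice, an outbred strain, aged 7 weeks and matched in telogen, the resting phase of the hair follicle. Each mouse was wounded at 1 body site only. Of the 12 mice, 4 received 2 punch wounds of 2 mm in the abdomen, 4 received 2 in the back and 4 received 1 in the cheek. At day 3 each mouse gave 1 wound library and 1 library of unwounded skin from next to a wound, which makes 6 groups of 4 libraries. The labels name no transgene and no treatment other than anaesthesia and analgesia, and the sex of the mice is not given. The unwounded skin came from wounded animals, and the sites came from different mice. The comparison of sites asked how skin whose dermis arises from lateral plate mesoderm (abdomen), paraxial mesoderm (back) or neural crest (cheek) differs at rest and after wounding.

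Endothelial cells line every vessel and are held together by junctions that contain VE-cadherin and PECAM-1. Vessel growth is driven largely by VEGF-A acting on its receptor VEGFR2, while the angiopoietins act on the receptor Tie2, where angiopoietin-1 keeps vessels quiescent and angiopoietin-2 usually opposes it and loosens them. Apelin is a peptide made by the tip cells that lead new sprouts. In a healing skin wound, new capillaries grow into the granulation tissue that fills the defect. In whole tissue, fewer cells of a type and less RNA per cell cannot be told apart, so each level below is that of the punch as a whole.

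Promoter sequences were matched for 5 of the 10 genes (Tek, Tie1, Kdr, Flt1 and Apln) in the RefSeq table of the GRCm38.p6 build. The 250 bases before the start of Apln are given, on the strand of the gene, because Apln had the largest rise of the 10. They lie at chrX:48034854-48035103 (minus strand), next to the gene at chrX:48025146-48034853, and overlap no annotated GENCODE exon. The windows of Tie1 and Kdr overlap annotated exons and those of Tek and Flt1 lie partly or wholly within the span of the gene, so they are not given. Capitals mark GGAA, the core of sites for ETS transcription factors, many of which act in endothelium, or its reverse complement TTCC.
Apln: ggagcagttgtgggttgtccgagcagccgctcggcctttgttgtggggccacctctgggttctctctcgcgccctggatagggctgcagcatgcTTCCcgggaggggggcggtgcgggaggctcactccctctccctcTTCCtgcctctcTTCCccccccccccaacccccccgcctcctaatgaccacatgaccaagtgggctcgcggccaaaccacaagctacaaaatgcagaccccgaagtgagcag
The core occurred 3 times before Apln. It is a common string, present in 93.4% of 32851 promoter windows of the same length, with a median of 3 matches. The core of the hypoxia response element, ACGTG on either strand, had 0 matches in this window and was present in 16.6% of all windows. These matches describe the letters only. Of the other genes that rose at all 3 sites, Tie1 lies at chr4:118471191-118489849 and Cdh5 at chr8:104101613-104144504 in the same build.

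Levels of the 10 genes spanned 0.68 FPKM (Angpt1, an abdomen wound) to 55.89 FPKM (Pecam1, a cheek wound). FPKM is scaled to transcript length, so levels can be set side by side between genes. Library totals ran from 490830 to 608888 FPKM, and with no counts deposited the depth behind each value is unknown. Summed markers of keratinocytes (5 genes, 4902 to 17550 FPKM) and of fibroblasts (5 genes, 4747 to 15700 FPKM) were high in all libraries, as the label skin requires. Marker sums of several cell types moved with wounding. The group medians of keratinocyte markers went from 7213 to 13190 FPKM in abdomen, 7011 to 13420 FPKM in back and 5351 to 12650 FPKM in cheek. Those of fibroblast markers went from 12500 to 7549 FPKM (abdomen), 12480 to 8067 FPKM (back) and 9671 to 6569 FPKM (cheek). The genes of the fibroblast list did not all move alike, as given below with Angpt1. Macrophage markers (7 genes) summed to 470.2 to 1027 FPKM in unwounded skin and to 1279 to 2492 FPKM in wounds, and neutrophil markers (6 genes) to 8.18 to 37.55 and to 344.1 to 2388 FPKM. Adipocyte markers (6 genes) had group medians of 867.8 to 954 FPKM in unwounded skin and of 494.6 to 522.8 FPKM in wounds. Skeletal muscle markers (6 genes) varied widely within a group, for example from 422.6 to 12740 FPKM in unwounded abdomen. Their group medians went from 7138 to 2648 FPKM in abdomen, 15880 to 3399 FPKM in back and 15000 to 5109 FPKM in cheek. In back the unwounded libraries (11840 to 19590 FPKM) lay above all wounds (2529 to 3746 FPKM). The part of these cell types in the levels of the vessel genes was not tested.

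Several of the 10 genes were higher in wounds at all 3 sites. Apln, Cdh5, Tie1, Pecam1, Angpt2 and Kdr were higher in the wound of all 12 mice. The share of all genes higher in all 12, or with no overlap of the states, is not given here. Such counts and separations therefore describe these genes and do not set them apart from other genes. Angpt1 was lower in the wound of 11 of 12 mice. Tek was lower in 9 and higher in 3, Vwf was higher in 9 and lower in 3, and Flt1 was higher in 6 and lower in 5. Tests were made with limma on log2(FPKM + 0.5) over all genes with a term for each mouse. The constant of 0.5 shrinks the fold changes of low genes. At the study's threshold for wounds, an adjusted p under 0.001, the abdomen had 3 risers among the 10 genes, the back 5 and the cheek 4, and 0 fell at any site. Among all 14423 genes tested, the shares were 3.92%, 10% and 6.50% higher and 1.04%, 4.37% and 2.19% lower, in the same order of sites. Apln, Cdh5 and Tie1 rose at all 3 sites, which held for 3.31% of all genes tested. At an adjusted p under 0.05, 6 of the 10 rose at each site, against 16.9%, 28.0% and 19.7% of all genes in abdomen, back and cheek. At that threshold 0 fell in abdomen and Angpt1 fell in back and cheek, against 16.0%, 17.9% and 16.9% of all genes. The 6 rises passed 0.05 at every site under each alternative processing and with any mouse left out, with the highest adjusted p at 0.0376 (Kdr, back). The calls at 0.001 were less stable, as leaving out 1 mouse gave counts of 1 to 3 for abdomen, 3 to 5 for back and 1 to 4 for cheek.

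**Figure D1:**
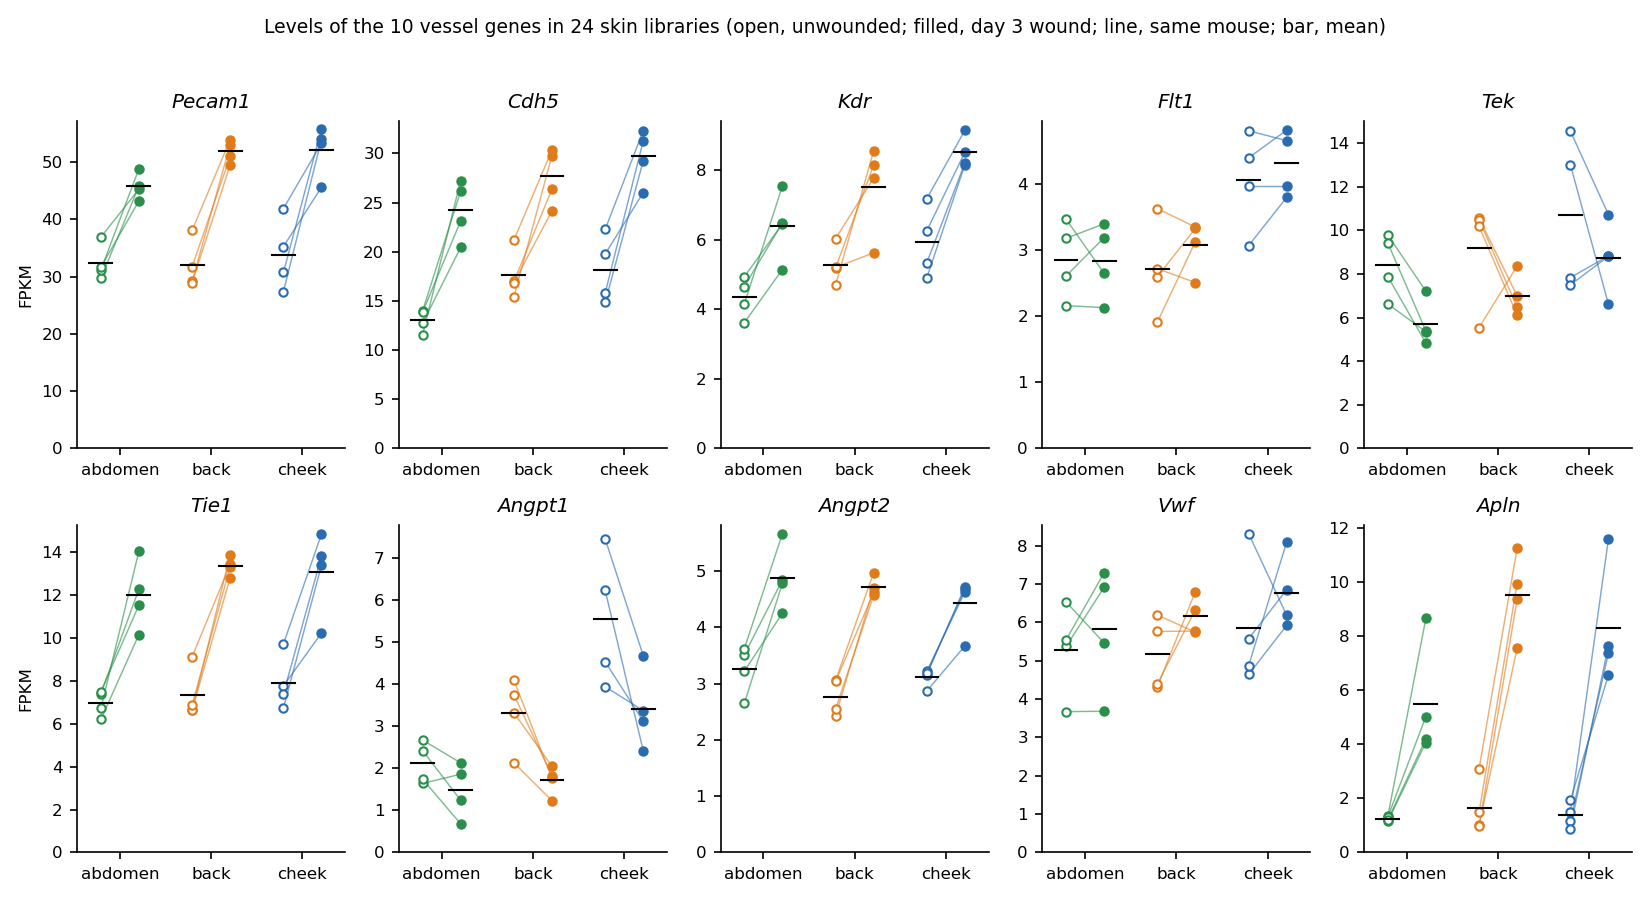
FPKM of each of the 10 genes (y axis, from 0) at each body site (x axis), with open points for unwounded skin, filled points for day 3 wounds, lines joining the libraries of 1 mouse and black bars for means of 4. Apln, Tie1, Pecam1 and Angpt2 lie higher in all wounds than in any unwounded library, whereas Angpt1 and Tek run downwards in most mice.

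Apln, which encodes the ligand apelin, had the largest change of the 10. In abdomen, Apln was at 1.33, 1.31, 1.15 and 1.20 FPKM in the unwounded skin of mice 1 to 4 and at 8.65, 5.02, 4.06 and 4.20 FPKM in their wounds. In back, Apln was at 1.49, 3.10, 1.01 and 0.97 FPKM in unwounded skin and at 9.94, 11.24, 7.55 and 9.36 FPKM in the wounds. In cheek, the unwounded values were 1.92, 1.49, 1.18 and 0.88 FPKM and the wound values 6.56, 11.58, 7.36 and 7.65 FPKM. The states did not overlap at any site, and the lowest wound lay above the highest unwounded library of all 12. On the scale of FPKM + 0.5, the rise was 3.29-fold in abdomen (log2 change 1.72 ± 0.20 SE, adjusted p = 8.19e-05), 4.97-fold in back (2.31 ± 0.20, adjusted p = 3.3e-06) and 4.70-fold in cheek (2.23 ± 0.20, adjusted p = 5.49e-06). Apln passed 0.001 with any 1 mouse left out, and lost that call only in fits of 1 site alone (8 libraries), with an adjusted p of 0.00222 in abdomen and 0.00114 in cheek. Aplnr, the receptor of apelin, went up as well. In abdomen its mean was 4.51 ± 0.82 FPKM in unwounded skin and 11.5 ± 1.16 FPKM in wounds (SD, n = 4), in back 7.15 ± 1.65 and 17.3 ± 2.72 FPKM, and in cheek 7.09 ± 1.43 and 15.7 ± 3.56 FPKM. The log2 changes of Aplnr were 1.27, 1.24 and 1.08, with adjusted p values of 5.35e-05, 2.76e-05 and 0.000104.

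**Figure D2:**
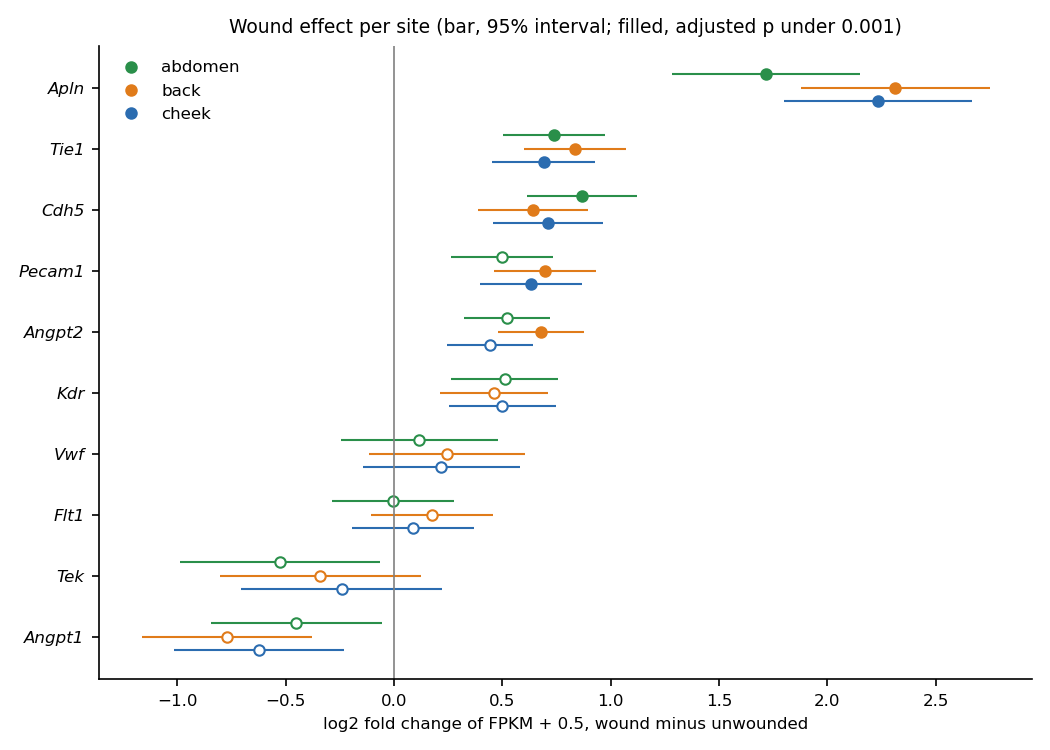
Wound effect of each gene (y axis) as the log2 fold change of FPKM + 0.5 (x axis) at the 3 sites, with 95% intervals, and filled where the adjusted p was under 0.001. Apln stands apart at 1.72 to 2.31, a group from Tie1 to Kdr lies between 0.44 and 0.87, and Angpt1 lies lowest in back and cheek.

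Of the receptors of VEGF, Kdr passed an adjusted p of 0.05 at each site and Flt1 at none, and the difference between their changes was not tested. Kdr encodes VEGFR2, the main signalling receptor for VEGF-A. In abdomen, Kdr was at 4.15, 4.65, 3.61 and 4.93 FPKM in unwounded skin and at 7.54, 6.48, 5.14 and 6.45 FPKM in the wounds of the same mice. In back, the values were 4.70, 6.03, 5.19 and 5.20 FPKM and 8.55, 7.77, 8.15 and 5.62 FPKM. In cheek, they were 6.26, 7.18, 5.34 and 4.91 FPKM and 8.52, 9.15, 8.21 and 8.16 FPKM. The states of Kdr overlapped in back only, where the wound of mouse 4 lay below the unwounded skin of mouse 2. The log2 change of Kdr was 0.51, 0.46 and 0.50 in abdomen, back and cheek, each ± 0.11 SE, with adjusted p values of 0.00532, 0.0057 and 0.00474, so that it passed 0.05 but not 0.001.

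Flt1 encodes VEGFR1, which binds VEGF-A tightly and in its soluble form acts as a decoy. Its mean in abdomen was 2.86 ± 0.59 FPKM in unwounded skin and 2.84 ± 0.57 FPKM in wounds (SD, n = 4). In back the means were 2.72 ± 0.71 and 3.08 ± 0.39 FPKM, and in cheek 4.07 ± 0.75 and 4.32 ± 0.50 FPKM. The states of Flt1 overlapped at all 3 sites, and the adjusted p values were 0.982, 0.292 and 0.636. The log2 change of Flt1 had a 95% interval of -0.29 to 0.28 in abdomen, -0.11 to 0.46 in back and -0.19 to 0.37 in cheek. A FPKM value for the whole gene does not separate the soluble from the membrane form.

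The ligands of these receptors were on a list of 7 genes of the VEGF system (Vegfa, Vegfb, Vegfc, Vegfd, Pgf, Nrp1 and Nrp2). Of the 7, 2 rose in back, 1 rose in cheek and 0 passed 0.001 in abdomen or at all 3 sites. Vegfa rose in back from 9.79 ± 1.56 to 17.6 ± 2.96 FPKM (log2 change 0.81, adjusted p = 0.00056). In abdomen and cheek Vegfa changed by 0.57 and 0.62 on the log2 scale, with adjusted p values of 0.00875 and 0.00432. Pgf, which encodes placental growth factor, a ligand of VEGFR1 alone among the VEGF receptors, changed by 0.67, 1.45 and 1.12 on the log2 scale in abdomen, back and cheek. Its adjusted p values were 0.0144, 5.74e-05 and 0.000545. Vegfb, which encodes another ligand of VEGFR1, changed by -0.33, -1.11 and -1.03 on the log2 scale and was lower in the wound of 11 of 12 mice. The adjusted p values of Vegfb were 0.28, 0.00206 and 0.00416, so that it passed 0.05 in back and cheek.

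The angiopoietins moved in opposite directions. Angpt2 encodes angiopoietin-2, which endothelial cells store and release. In abdomen, Angpt2 was at 3.51, 3.62, 3.22 and 2.65 FPKM in unwounded skin and at 4.84, 5.66, 4.25 and 4.78 FPKM in wounds. In back skin Angpt2 was at 2.43, 3.06, 3.04 and 2.55 FPKM and 4.70, 4.97, 4.62 and 4.57 FPKM. In cheek skin Angpt2 was at 2.87, 3.22, 3.16 and 3.19 FPKM and 3.67, 4.63, 4.72 and 4.68 FPKM. All 12 wounds lay above all 12 unwounded libraries, with the wound of cheek mouse 1 the closest. On the log2 scale Angpt2 changed by 0.52 (abdomen, adjusted p = 0.00137), 0.68 (back, adjusted p = 0.000102) and 0.44 (cheek, adjusted p = 0.00268), each ± 0.09 SE.

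Angpt1 encodes angiopoietin-1, which pericytes and other mural or stromal cells supply. In abdomen, Angpt1 was at 1.64, 2.67, 1.74 and 2.42 FPKM in unwounded skin and at 1.86, 2.13, 0.68 and 1.24 FPKM in wounds. In back, the values were 3.32, 3.75, 2.13 and 4.10 FPKM and 2.05, 1.82, 1.23 and 1.76 FPKM. In cheek, they were 7.45, 6.23, 4.53 and 3.94 FPKM and 4.68, 2.42, 3.12 and 3.37 FPKM. The states overlapped in abdomen and cheek and were apart in back, and abdomen mouse 1 was the only mouse with more Angpt1 in its wound. The log2 change of Angpt1 was -0.45 (abdomen, adjusted p = 0.0737), -0.77 (back, adjusted p = 0.00425) and -0.62 (cheek, adjusted p = 0.0176), each ± 0.18 SE. In cheek the adjusted p rose to 0.113 without mouse 2 (log2 change -0.43) and to 0.0502 without mouse 1, whereas in back it stayed at or under 0.0254 with any mouse left out. Pericyte and smooth muscle markers (8 genes) summed to 161.9 to 250.6 FPKM in unwounded skin and to 222.4 to 268 FPKM in wounds, but the genes of the list differed. At an adjusted p under 0.05, 3 of the 8 fell and 2 rose in abdomen, 2 fell and 4 rose in back, and 3 fell and 3 rose in cheek. Of all genes tested, 16.0%, 17.9% and 16.9% fell and 16.9%, 28.0% and 19.7% rose at that threshold, in the same order of sites. Kcnj8 and Abcc9, which encode the subunits of the potassium channel of pericytes, were lower in the wound of 12 of 12 mice, with mean log2 changes of -0.64 and -0.79 over the sites. Rgs5, a pericyte marker, was higher in 12 of 12, with a mean of 0.57. The medians of the fibroblast markers, given above, were lower in wounds at all 3 sites. The part of these cells in the Angpt1 level was not tested.

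Because both angiopoietins bind Tek, their ratio was formed within each library. The median of Angpt2 FPKM over Angpt1 FPKM was 1.60 in unwounded abdomen and 3.26 in abdomen wounds, 0.774 and 2.66 in back, and 0.607 and 1.45 in cheek. Unwounded cheek was the only group in which all 4 libraries held more Angpt1 than Angpt2, with ratios from 0.385 to 0.810. The log2 ratio, with 0.5 FPKM added to each gene, went from -0.12 ± 0.65 in unwounded skin to 1.04 ± 0.62 in wounds (SD, n = 12 mice). The change within a mouse was 1.16 ± 0.44 and was above 0 in 12 of 12 mice, from 0.27 in abdomen mouse 1 to 1.76 in back mouse 4. An exact two-sided sign-change permutation test gave p = 0.000488, the smallest that 12 mice allow, or 0.00195 adjusted over the 4 tests of the ratio. The ratio is formed from the values of Angpt2 and Angpt1 given above, so its test is no separate support for their changes. By site the change was 0.97 ± 0.54 (abdomen), 1.45 ± 0.26 (back) and 1.07 ± 0.42 (cheek), each with an exact permutation p of 0.125, the smallest that 4 mice allow.

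**Figure D3:**
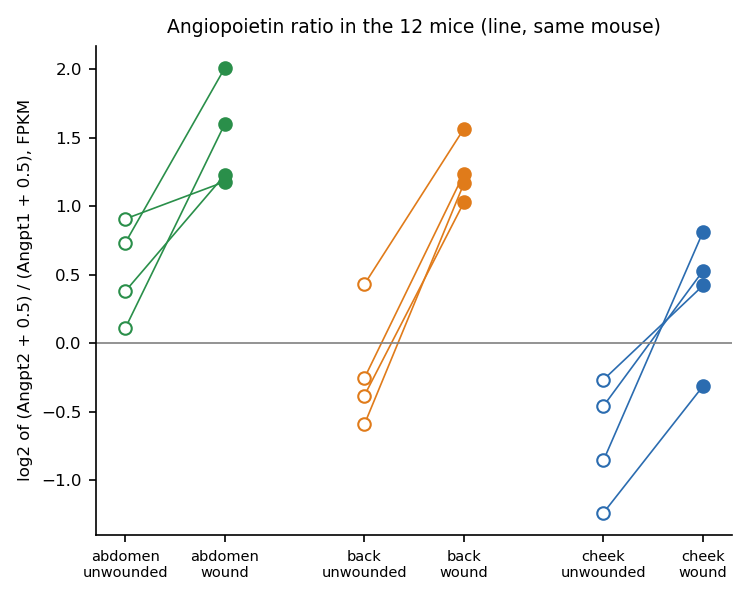
Log2 ratio of Angpt2 to Angpt1, each as FPKM + 0.5 (y axis), in unwounded skin (open) and wounds (filled) at the 3 sites (x axis), with lines joining the libraries of 1 mouse. All 12 lines rise, and the cheek lies lowest in both states, with means of -0.70 and 0.36.

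Tek encodes Tie2, the receptor of the angiopoietins. In abdomen, Tek was at 6.62, 9.79, 7.88 and 9.42 FPKM in unwounded skin and at 5.35, 7.21, 4.83 and 5.39 FPKM in wounds. In back, the values were 5.54, 10.56, 10.50 and 10.18 FPKM and 8.36, 6.99, 6.47 and 6.11 FPKM. In cheek, they were 14.56, 13.02, 7.83 and 7.50 FPKM and 10.73, 6.62, 8.83 and 8.81 FPKM. The states overlapped at every site, and the unwounded back skin of mouse 1 lay far below that of the other 3 back mice. The log2 change was -0.53, -0.34 and -0.24 in abdomen, back and cheek, each ± 0.21 SE, with adjusted p values of 0.0762, 0.212 and 0.402. Without back mouse 1 the adjusted p of Tek in back was 0.0174, and over the 12 fits with a mouse left out it reached 0.505.

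Tie1 encodes an orphan relative of Tie2 that pairs with it at the cell surface. In abdomen, Tie1 was at 7.40, 6.72, 7.50 and 6.20 FPKM in unwounded skin and at 12.28, 14.05, 11.53 and 10.16 FPKM in wounds. In back skin Tie1 was at 6.63, 9.12, 6.65 and 6.89 FPKM and 13.89, 13.44, 12.82 and 13.33 FPKM. In cheek skin Tie1 was at 7.77, 9.72, 7.41 and 6.73 FPKM and 10.23, 14.85, 13.81 and 13.40 FPKM. No wound overlapped with any unwounded library. Tie1 rose 1.67-fold in abdomen (adjusted p = 0.000392), 1.79-fold in back (adjusted p = 7.38e-05) and 1.61-fold in cheek (adjusted p = 0.000435) on the scale of FPKM + 0.5. The call at 0.001 was lost in abdomen when any abdomen mouse was left out (adjusted p up to 0.00288) and in cheek without mouse 2, 3 or 4 (up to 0.00379), and was kept in back in all 12 fits. So Tie1 rose where Tek, its partner receptor, did not pass the test. The difference between the changes of these receptors was not tested.

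Cdh5 encodes VE-cadherin, the adhesion protein of endothelial junctions. In abdomen, Cdh5 was at 13.98, 11.56, 12.71 and 13.83 FPKM in unwounded skin and at 26.16, 27.24, 20.43 and 23.13 FPKM in wounds. In back skin Cdh5 was at 15.39, 21.18, 16.97 and 16.85 FPKM and 29.79, 30.35, 26.36 and 24.15 FPKM. In cheek skin Cdh5 was at 19.76, 22.27, 14.83 and 15.79 FPKM and 26.01, 32.32, 29.26 and 31.28 FPKM. The states did not overlap within a site. Cdh5 rose by 0.87 ± 0.12 SE on the log2 scale in abdomen (adjusted p = 0.000222), 0.64 in back (adjusted p = 0.000829) and 0.71 in cheek (adjusted p = 0.000607). The call at 0.001 went in abdomen without mouse 1, 2 or 4 (adjusted p up to 0.00163), in back with 8 of the 12 mice left out in turn (up to 0.00649, without back mouse 1) and in cheek with 6 of the 12 (up to 0.00514, without cheek mouse 3).

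Pecam1 encodes PECAM-1 (CD31), which endothelial cells share with platelets and leukocytes, and was the most abundant of the 10 genes. In abdomen, Pecam1 was at 29.71, 31.16, 36.91 and 31.67 FPKM in unwounded skin and at 45.82, 48.87, 45.31 and 43.24 FPKM in wounds. In back, the values were 29.16, 38.13, 31.77 and 28.96 FPKM and 53.11, 53.96, 51.03 and 49.59 FPKM. In cheek, they were 35.27, 41.92, 30.73 and 27.37 FPKM and 45.64, 53.36, 55.89 and 54.02 FPKM. All wounds lay above all unwounded libraries. The log2 change of Pecam1 was 0.50 (abdomen, adjusted p = 0.00466), 0.70 (back, adjusted p = 0.000279) and 0.63 (cheek, adjusted p = 0.000795), each ± 0.11 SE. The call at 0.001 was lost in back without back mouse 1, 3 or 4 (adjusted p up to 0.0024) and in cheek in 11 of the 12 fits with a mouse left out (up to 0.00663, without cheek mouse 3). Platelet markers (7 genes, of which 4 were high enough to test) summed to 52.57 to 111.2 FPKM in unwounded skin and to 117.2 to 277.8 FPKM in wounds. Most of this sum was Pf4, with means of 127.0 FPKM in abdomen wounds and 205.8 FPKM in back wounds. The genes of the list differed, as Itga2b was lower in the wound of 9 of 12 mice (back, -0.29 on the log2 scale, adjusted p = 0.0479). Macrophage and neutrophil markers were higher in wounds, as given above. The part of platelets, macrophages and neutrophils in the Pecam1 level was not tested.

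Vwf encodes von Willebrand factor, which tethers platelets to injured vessels and is made by endothelium and megakaryocytes. Over the 12 unwounded libraries it ranged from 3.67 to 8.31 FPKM and over the 12 wounds from 3.68 to 8.09 FPKM. The log2 change of Vwf was 0.12, 0.25 and 0.22 in abdomen, back and cheek, each ± 0.17 SE, with adjusted p values of 0.62, 0.248 and 0.327. The 95% intervals ran from -0.24 to 0.48, from -0.12 to 0.61 and from -0.14 to 0.58. The states of Vwf overlapped at every site.

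The 10 genes were then set beside a list of 25 other endothelial genes, whose median log2 change within a mouse was above 0 in 12 of 12 mice, from 0.03 to 0.45. Of the 25, 4 rose at 0.001 in abdomen, 7 in back and 2 in cheek, 1 fell in back, and the median wound effect was 0.23, 0.32 and 0.27. The median over all genes tested was -0.01, 0.07 and 0.01. Rasip1, a regulator of endothelial cell shape and lumen formation, and Eng, the TGF-beta co-receptor endoglin, led the rises, with mean effects of 0.76 and 0.73 over the 3 sites. The gene that fell in back was Cd34, which stromal cells also express, with -0.86 on the log2 scale (adjusted p = 0.000686). Its change was alike in abdomen (-0.81, adjusted p = 0.00205) and cheek (-0.77, adjusted p = 0.00202), and it was lower in the wound of 12 of 12 mice. The summed level of the 25 genes was 512.5 to 746.4 FPKM in unwounded skin and 573.4 to 675.1 FPKM in wounds, a sum to which Cd34 alone gave a mean of 268.2 FPKM in unwounded abdomen and 155.6 FPKM in abdomen wounds.

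Apln, Tie1, Cdh5, Pecam1 and Angpt2 changed by more than the list's median in 12 of 12 mice, and Kdr in 11. Relative to that median, the median change over mice was 1.86 for Apln, 0.52 for Tie1, 0.47 for Cdh5, 0.33 for Pecam1, 0.29 for Angpt2 and 0.27 for Kdr on the log2 scale. Vwf lay above it in 5 mice, Flt1 in 2, Tek in 1 and Angpt1 in 0, with median differences of -0.10, -0.16, -0.74 and -0.95. The change of Tek was thus below that of the list in 11 of 12 mice and that of Angpt1 in 12 of 12. These are counts over mice, with no test.

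**Figure D4:**
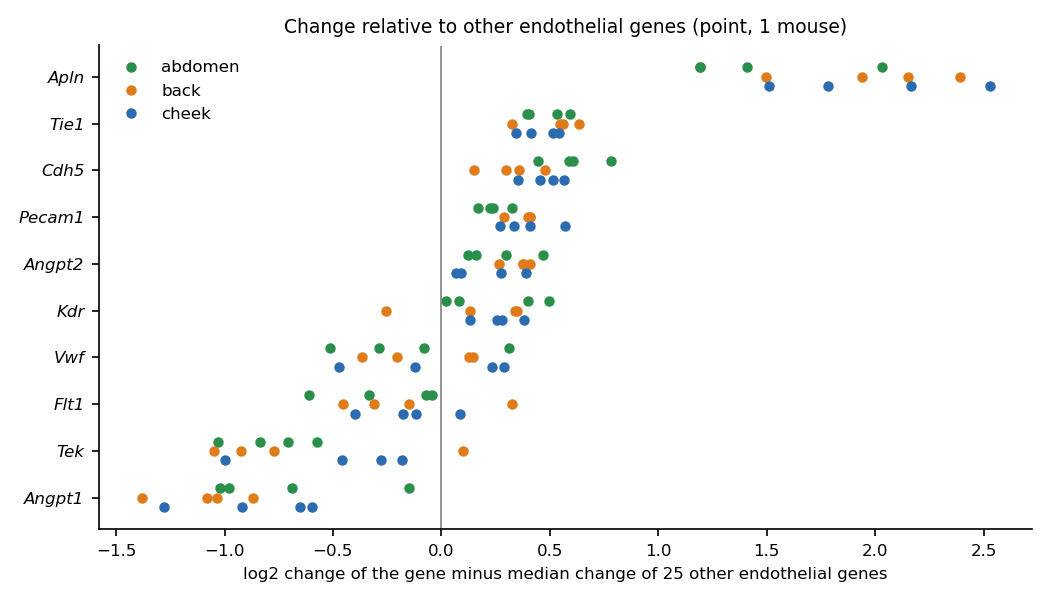
Log2 change of each gene in each mouse minus the median change of 25 other endothelial genes in that mouse (x axis), by gene (y axis) and site (colour), where each point is 1 mouse. All 12 points of Apln, Tie1, Cdh5, Pecam1 and Angpt2 lie right of 0 and all 12 of Angpt1 lie left of it.

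Further lists of vessel biology were counted in the same fit. Their counts stand beside the shares of all genes given above, and no difference from those shares was tested. Of 13 tested genes of sprouting and apelin signalling, 0 fell and 2 (abdomen), 5 (back) and 3 (cheek) rose at 0.001. Cxcr4, a chemokine receptor of tip cells that leukocytes also carry, rose most, by 2.03, 2.24 and 2.30 on the log2 scale (adjusted p at most 3.84e-06). Of 10 genes of activated endothelium, 1 rose in abdomen and 3 each in back and cheek. Vcam1, an adhesion molecule for leukocytes, rose by 0.94, 1.70 and 1.40 (adjusted p at most 0.000694). At an adjusted p under 0.05, 5 of the 10 rose and 2 fell in cheek, and 0 fell in abdomen or back. The 2 that fell were Ackr1 (-0.48, adjusted p = 0.0458) and Edn1 (-0.57, adjusted p = 0.022). Over the sites, Ackr1 was lower in the wound of 11 mice and Edn1 in 10. Of 7 artery and vein genes, 1 rose in abdomen and 1 in back, and none of them passed at all 3 sites.

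Of 7 inhibitors of angiogenesis, 1 rose and 1 fell in abdomen, and 3 rose and 1 fell in back and in cheek. Col18a1, whose product is the source of endostatin, rose by 0.82, 1.25 and 1.05 on the log2 scale in 12 of 12 mice. Timp3, a metalloproteinase inhibitor that also blocks VEGFR2, fell by 1.14, 0.99 and 1.05 in 12 of 12 mice, from means of 58.1 to 69.5 FPKM in unwounded skin to 28.0 to 34.2 FPKM in wounds. Of 9 tested genes of the hypoxia response, 1 rose in abdomen, 5 in back and 4 in cheek. Slc2a1, the glucose transporter GLUT1, rose by 1.26, 1.63 and 2.04. At an adjusted p under 0.05, 5 of the 9 rose and 1 fell at each site. The gene that fell was Pdk1 (-0.32, -0.25 and -0.28), lower in the wound of 12 of 12 mice. Bnip3, Pfkfb3 and Ldha passed 0.05 at no site. Of 6 lymphatic genes, 1 rose at each site and 0 fell at 0.001. It was Pdpn, which keratinocytes and stromal cells also express. The median effect of the list was -0.28, -0.21 and -0.04. At an adjusted p under 0.05, Mmrn1, a matrix protein of lymphatic endothelium, fell at each site (-0.84, -0.57 and -0.51 on the log2 scale) and Lyve1, a hyaluronan receptor, fell in abdomen (-0.998, adjusted p = 0.00773).

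**Figure D5:**
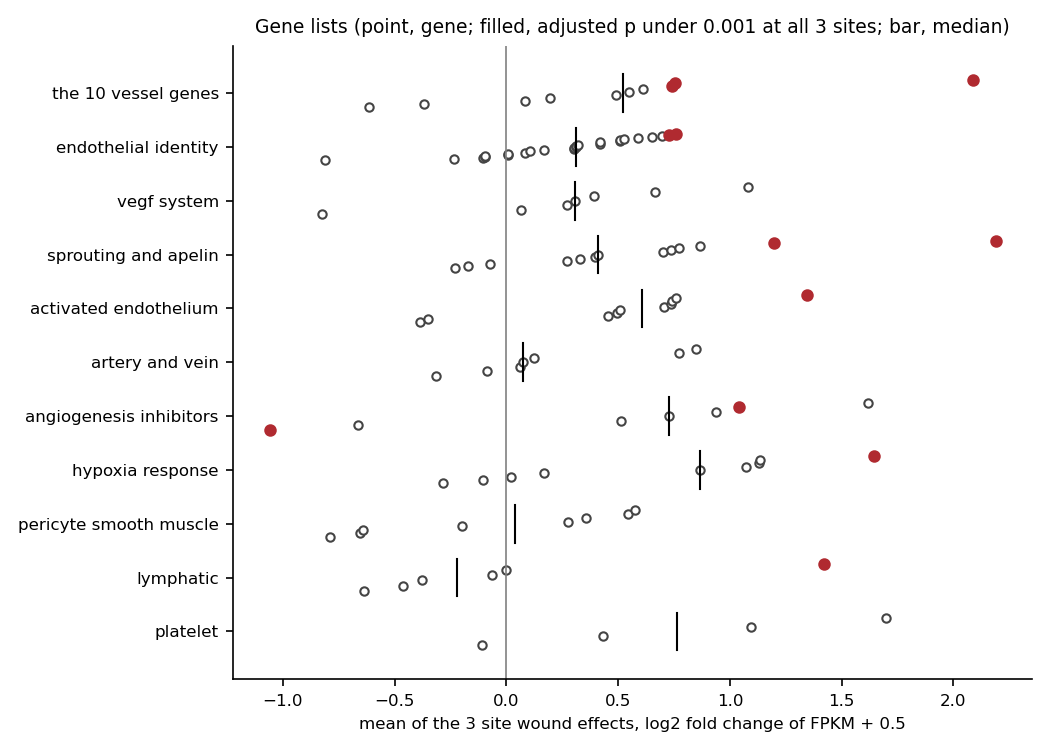
Mean of the 3 wound effects (x axis, log2 fold change of FPKM + 0.5) of each tested gene in the 10 vessel genes and 10 related lists (y axis), where bars are medians and filled points passed 0.001 at all 3 sites. The filled points are Apln, Tie1 and Cdh5 in the top row, and each related list holds 0 to 2 such genes. Among all genes tested, 3.31% rose past 0.001 at all 3 sites.

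Whether the sites differed was tested in the 12 unwounded libraries and, separately, in the 12 wounds, at an adjusted p under 0.05. In unwounded skin 1 of the 10 genes was called in at least 1 pair of sites, against 4.92% of 13956 genes tested. It was Angpt1, with a mean of 5.54 ± 1.60 FPKM in cheek, 3.33 ± 0.86 FPKM in back and 2.12 ± 0.51 FPKM in abdomen (SD, n = 4). All cheek libraries lay above all abdomen libraries, and those of the back overlapped with both. Cheek exceeded abdomen by 1.19 ± 0.22 SE on the log2 scale (adjusted p = 0.0175), while the differences of cheek from back (0.65, adjusted p = 0.145) and of back from abdomen (0.54, adjusted p = 0.188) did not pass. The call was lost without abdomen mouse 3 (adjusted p = 0.0718), cheek mouse 1 (0.053) or cheek mouse 2 (0.0714). Cdh5 was lowest in abdomen, at 13.0 ± 1.13 FPKM against 17.6 ± 2.49 FPKM in back and 18.2 ± 3.47 FPKM in cheek, but its adjusted p values against abdomen were 0.119 and 0.101. Over all genes the median difference was -0.12 for back minus abdomen, 0.14 for cheek minus back and 0.03 for cheek minus abdomen. The cause of these medians was not tested.

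In wounds 3 of the 10 genes were called, against 12.2% of 14023 genes tested, all 3 higher in cheek than in abdomen. Angpt1 was at 3.40 ± 0.95 FPKM in cheek wounds and 1.48 ± 0.65 FPKM in abdomen wounds (log2 difference 1.01 ± 0.25 SE, adjusted p = 0.0278). Flt1 was at 4.82, 4.66, 3.80 and 3.98 FPKM in cheek wounds and at 3.19, 3.40, 2.13 and 2.65 FPKM in abdomen wounds (0.54 ± 0.14 SE, adjusted p = 0.0326). Tek was at 8.75 ± 1.68 and 5.70 ± 1.04 FPKM (0.57 ± 0.15 SE, adjusted p = 0.0353). Cheek and abdomen wounds did not overlap in Angpt1 or Flt1 and overlapped in Tek. Each of these calls was lost with 1 of several mice left out. For Angpt1 these were abdomen mouse 3 (adjusted p = 0.0631) and cheek mouse 1 (0.0638), 3 (0.0543) or 4 (0.0576). For Flt1 they were abdomen mouse 3 (0.0805) or 4 (0.0564) and cheek mouse 1 (0.0753), 2 (0.082) or 4 (0.0546). For Tek they were abdomen mouse 1 (0.0546), 3 (0.098) or 4 (0.0597), back mouse 2 (0.0511) and cheek mouse 1 (0.0822), 3 (0.0749) or 4 (0.0696). Apln was at 5.48 ± 2.15 FPKM in abdomen wounds, 9.52 ± 1.53 FPKM in back wounds and 8.29 ± 2.24 FPKM in cheek wounds, with adjusted p values of 0.105 and 0.104 against abdomen. Without abdomen mouse 1, whose wound was the highest of the abdomen, these were 0.0262 and 0.0215. Over the 12 fits with a mouse left out they reached 0.231 and 0.258. The contrasts of cheek and of back with abdomen share the abdomen libraries. Over all genes tested in wounds, the median difference was 0.07 for cheek minus abdomen and -0.03 for back minus abdomen.

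Whether the wound effect itself differed between sites was tested by a moderated F test. Of the 10 genes, 0 passed an adjusted p of 0.05 and 0 had an unadjusted p under 0.05 in limma, against 0.0208% of 14423 genes called. The smallest p was that of Apln, at 0.112 (adjusted p = 0.463). The rise of Apln was greater in back than in abdomen by 0.60 on the log2 scale, with a 95% interval from -0.02 to 1.21, and greater in cheek than in abdomen by 0.52, with an interval from -0.10 to 1.13. For Angpt1 the response in back minus that in abdomen was -0.32, with an interval from -0.88 to 0.23. These differences between sites did not pass with 4 mice a site, and the size that could be detected was not computed. The counts called at each site are not a test of them.

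The pattern of single libraries around their group means was described for Cdh5 and Apln by Pearson's r of the deviations over the 24 libraries, which share a mouse in pairs. For Cdh5, the closest genes were Zfp93 (r = 0.807), Vegfa (0.788), Mterf2 (0.765), Epas1 (0.762) and Gm5113 (0.752). Epas1 encodes HIF-2 alpha, an oxygen-regulated transcription factor abundant in endothelium. Among the 10 vessel genes, those closest to Cdh5 were Pecam1 (0.727), Tie1 (0.726) and Kdr (0.715), and Vwf was the farthest (0.162). For Apln, the closest genes were Hrh2 (0.812), Pcdh12 (0.782), Notch4 (0.781), Slit1 (0.775) and Narfl (0.771). Pcdh12 and Notch4 are known from endothelium, as a junctional protocadherin and a Notch receptor. The coefficients are descriptions over libraries and were not tested.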

How the data were processed

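Whole skin of 12 mice gave 24 libraries, grouped by site, state and mouse number from the labels. The authors' FPKM values, made with RSEM 1.2.12 on reads mapped to mm10 (Bowtie2 2.2.5 and HISAT2 are also named in the submitters' processing notes), were used as deposited, without scaling between libraries. A second deposited table holds the authors' own comparisons (log2 fold changes and adjusted p-values) and was not used.

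FPKM + 0.5 was taken to log2 and fitted with limma 3.58.1 (R 4.3.3), using its trended and robust moderation. A gene was tested if 4 or more libraries of a fit reached 0.5 FPKM. Adjusted p-values are Benjamini-Hochberg values over every gene tested in a comparison. For wound effects, the 24 libraries were fitted together and each mouse had its own term. The threshold was 0.001 for wound effects and 0.05 between sites, as in the study's methods. The scripts were tested on simulated data. The members, lists and tests were chosen with earlier results of these data known. All 10 members are named. In each related list, up to 2 genes with the largest mean rise and 2 with the largest mean fall were named, among those past 0.001 at all 3 sites with 12 mice alike, and for Cdh5 and Apln the 5 genes of most similar deviations. Cd34, Vegfa, Vegfb, Pgf, Kcnj8, Abcc9, Rgs5, Pdpn, Mmrn1 and Lyve1 were named after their values were seen. So were Ackr1, Edn1, Pdk1, Bnip3, Pfkfb3 and Ldha. Aplnr and Cxcr4, Rasip1, Eng, Vcam1, Col18a1, Timp3 and Slc2a1 were named by the rule. Of 141 symbols on the lists, 140 were in the table.

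Both libraries of a mouse come from the same animal per the labels. Across genes, their deviations from the group means had a mean correlation of 0.322 (abdomen), 0.348 (back) and 0.281 (cheek), against -0.108, -0.116 and -0.0958 for libraries of different mice. Deviations cancel out within a group, so positive means for the same mouse largely force the negative means for different mice. In abdomen the lowest same-mouse value was -0.0299 and the highest for different mice was 0.215. FPKM values hold no counts, so counting error is unknown. From the steps of low values in 216 genes, relative depth lay between 0.955 and 1.03. Alternatives were other pseudocounts, filters, scalings, moderation, blocks and sets of libraries, and each mouse left out in turn.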

Additional observations from a re-analysis of the deposited data

Results flagged for a closer look

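In 3 of the 60 sets of 4 libraries (10 genes in 6 groups), the highest or lowest library lay farther from the other 3 than Dixon's 95% critical value allows for its share of the range, a rule that chance meets in about 1 in 20 sets. Tek in unwounded back skin was at 5.54 FPKM in mouse 1, below the other 3 mice, with a gap of 0.924 of the range. Tie1 in unwounded back skin was at 9.12 FPKM in mouse 2, above the other 3, with a gap of 0.896 of the range. Angpt2 in cheek wounds was at 3.67 FPKM in mouse 1, below the other 3, with a gap of 0.914 of the range.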

How the results depend on the processing

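Of the counts of genes called, those for wounds moved most. In abdomen, 3 genes passed 0.001, 1 after quantile normalization, 0 from the abdomen libraries alone and 6 at a threshold of 0.05. In back, 5 passed, and 3 under median-ratio scaling, equal totals and quantile normalization. In cheek, 4 passed, 2 without a filter, with equal totals or without trend and robust moderation, 1 under median-ratio scaling and quantile normalization, 0 from the cheek libraries alone and 7 at 0.05. With 6 group means over 24 libraries, 2 genes were called between unwounded sites in place of 1, and 1 between wounds in place of 3. Leaving out 1 mouse gave 1 to 3 genes in abdomen, 3 to 5 in back, 1 to 4 in cheek, 0 to 1 between unwounded sites, 0 to 4 between wounds, 0 to 0 for the difference in response, and a change in the angiopoietin ratio of 1.11 to 1.24. Under every one of these settings Apln, Cdh5, Tie1, Pecam1, Angpt2 and Kdr stayed higher in wounds. Flt1 in abdomen turned from -0.00 to 0.00 under median-ratio scaling (0.001243), and ranged from -0.0888 to 0.105 with 1 mouse left out, the latter without abdomen mouse 4 (adjusted p = 0.632). The cause of these moves was not tested.

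Without the replicate block for the mouse, 3, 5 and 4 genes were called in abdomen, back and cheek, and the Angpt1 change in cheek had an adjusted p of 0.0559. With the mouse number as a replicate block between sites, where it pairs different animals, 1 gene was called in unwounded skin and 2 in wounds. Over single genes, 974 values kept direction and call, 92 lost a call, 10 gained one and 2 changed sign. Depth is unknown, and whole-tissue values do not separate cell number from RNA per cell.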
